A study of Mus musculus with 2 samples.

Results

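Newborn migrating excitatory neurons of the embryonic mouse cortex were described here in 2 single-cell RNA libraries. They were chosen by RNA alone: a cell was counted as a newborn neuron when it held at least 2 UMIs (unique molecular identifiers, the counted RNA molecules) of Neurod1 and at least 1 of Unc5d, and 0 of Eomes, Dlx1, Gad2 and Top2a. A cell entered the count only when its barcode held 1500 to 60000 UMIs with less than 10% of them from mitochondrial genes. Under this rule 595 of 16348 passing cells were newborn neurons, 303 of 8139 in WT replicate 1 and 292 of 8209 in WT replicate 6. They made up 3.72% of the passing cells of WT replicate 1 (95% Wilson interval 3.33 to 4.16) and 3.56% of those of WT replicate 6 (3.18 to 3.98), a mean of 3.64% ± 0.117 (SD, n = 2 libraries). The intervals of both libraries overlapped, and they cover counting error only.

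Excitatory neurons of the cortex are born from radial glia and from Eomes-expressing intermediate progenitors that divide beneath the cortical plate. After the last division the young neuron passes through a multipolar stage in the subventricular and intermediate zones, and then takes a bipolar shape and climbs along radial glial fibres toward the pial surface. The bHLH factor Neurod1, the netrin and Flrt receptor Unc5d and the atypical small GTPase Rnd2 are known for this multipolar-to-bipolar passage, Sema3c is a secreted guidance ligand, and Sstr2 is a receptor for somatostatin.

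Both libraries came from WT embryos at embryonic day 16.5 of a line in which Emx1-Cre deletes Dot1l in the cortex, and only WT embryos were analysed here. The labels give the tissue as brain hemispheres and the protocol as papain-dissociated dorsal telencephalon, and whether the WT embryos carried Cre or floxed alleles, and whether they shared a litter, is not given in the sources used here. With 1 group there was no comparison of genotypes. Each p-value sets a difference against the spread between these 2 libraries, which the fit estimates partly from all genes together and not from the gene alone. The libraries held 74930397 and 68964234 UMIs in 14136 and 13046 barcodes, and 59 barcode sequences occurred in both (none of them in newborn neurons of both). They differed in Xist, with 76258 and 10 UMIs, and in the Y-linked gene Ddx3y, with 5 and 2193. A difference of sex between the embryos cannot be told apart from other differences between the libraries.

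The newborn neurons were set beside 2 classes gated in the same way from the same libraries. Eomes+ cells held at least 2 Eomes UMIs and 0 of Dlx1, Gad2 and Top2a (332 and 381 cells), and were taken as the preceding stage outside mitosis. Neurod6+ neurons held at least 2 Neurod6 UMIs and 0 of Neurod1, Unc5d, Eomes, Dlx1, Gad2 and Top2a (530 and 632 cells), and were taken as excitatory neurons past the stage. A radial glia gate, an interneuron gate and a microglia gate were used for levels only. The Eomes+ gate put no limit on neuronal RNA. With each cell thinned to 2000 UMIs, Neurod6 was seen in 48.5% and Dcx in 61.8% of Eomes+ cells. The microglia gate gave 10.5% and 12.6% (means of 2 libraries). How many Eomes+ cells were progenitors was not tested. Median depth was alike in the compared classes, at 9182 and 8292 UMIs in newborn neurons, 9344.5 and 8739 in Eomes+ cells and 9338.5 and 8488.5 in Neurod6+ neurons, against 6747.5 and 6561 in all other passing cells. Thinned to 2000 UMIs a cell, newborn neurons held a median of 1224 and 1225 genes. Ribosomal protein genes took a median of 9.50% and 8.69% of UMIs in newborn neurons, 13.4% and 12.1% in Eomes+ cells and 9.55% and 8.55% in Neurod6+ neurons, and the part of this in the differences with Eomes+ cells was not tested.

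Each step of the gate removed cells. In WT replicate 1 and WT replicate 6, 740 and 693 cells had at least 2 Neurod1 UMIs, 647 and 624 of these also had Unc5d, and 408 and 375 of those lacked Eomes. Removing cells with Dlx1, Gad2 and Top2a left the 303 and 292. The newborn neurons held a median of 3 Neurod1 UMIs in each library and a median of 22 and 27 Unc5d UMIs, so most sat close to the Neurod1 threshold and far above the Unc5d threshold. The 120 and 140 cells with exactly 2 Neurod1 UMIs were just inside the gate, with Sstr2 at 75.1 and 85.3 CPM (counts of a gene per 1000000 UMIs, of all UMIs summed over the cells), Sema3c at 279 and 342 and Nrp1 at 775 and 719. The 308 and 318 cells with exactly 1 Neurod1 UMI that met every other criterion were just outside, with Sstr2 at 43.6 and 49.9, Sema3c at 316 and 249 and Nrp1 at 717 and 796. At the other threshold, the 31 and 16 cells with exactly 1 Unc5d UMI had Rnd2 at 35.0 and 42.1 CPM, and the 62 and 59 cells with none had Rnd2 at 36.4 and 79.3.

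All 5 markers were present in the newborn neurons of both libraries. Neurod1 (chromosome 2, 79452637 to 79456636, GRCm38) stood at 348 and 349.5 CPM in the newborn neurons of WT replicate 1 and WT replicate 6, against 182 and 156 in Eomes+ cells and 41.2 and 37.8 in all other passing cells. Unc5d (chromosome 8, 28646717 to 29219671) stood at 3083 and 3547 CPM in newborn neurons, 3092 and 3269 in Eomes+ cells and 1001 and 1098 in all other cells. These values chose the cells and were not tested, and the same holds for any contrast of newborn neurons with all other passing cells.

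The 3 markers that the gate did not read separated the newborn neurons from the older class more than from the younger. The gate of the older class required 0 Neurod1 and 0 Unc5d UMIs, and that of the younger class set no limit on either. Rnd2 (chromosome 11, 101468175 to 101471853) stood at 101 and 133 CPM in newborn neurons, 148 and 168 in Eomes+ cells and 9.095 and 9.69 in Neurod6+ neurons. It was higher in newborn than in Neurod6+ neurons (log2 difference 3.58 ± 0.17, adjusted p = 4.6e-06). Its lower value against Eomes+ cells did not pass the test (-0.38 ± 0.13, adjusted p = 0.068). Each adjusted p given here is from edgeR's quasi-likelihood test with Benjamini-Hochberg adjustment over all genes of the comparison, 2 libraries a class, with 0.05 as the threshold, and each log2 difference is given with its SE. Sstr2 (chromosome 11, 113619327 to 113626028) stood at 76.02 and 96.7 CPM in newborn neurons, 111 and 120.1 in Eomes+ cells and 6.33 and 5.71 in Neurod6+ neurons. It too was higher than in Neurod6+ neurons (3.79 ± 0.18, adjusted p = 4.6e-06), and did not pass against Eomes+ cells (-0.36 ± 0.12, adjusted p = 0.063). With the library as a block, the differences from Eomes+ cells passed for Rnd2 (-0.38, adjusted p = 0.0022) and for Sstr2 (-0.36, adjusted p = 0.0059). Sema3c (chromosome 5, 17574816 to 17730268) alone among these 3 markers was higher in newborn neurons than in both neighbours, at 333 and 389 CPM against 186 and 211 in Eomes+ cells (log2 difference 0.93 ± 0.11, adjusted p = 0.00056) and 40.7 and 32.4 in Neurod6+ neurons (3.26 ± 0.14, adjusted p = 3.6e-06). Against Neurod6+ cells with any Unc5d count, an alternative chosen after seeing the data, all 3 markers were still higher. Their median log2 difference was then 1.75 rather than 3.58.

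**Figure D1:**
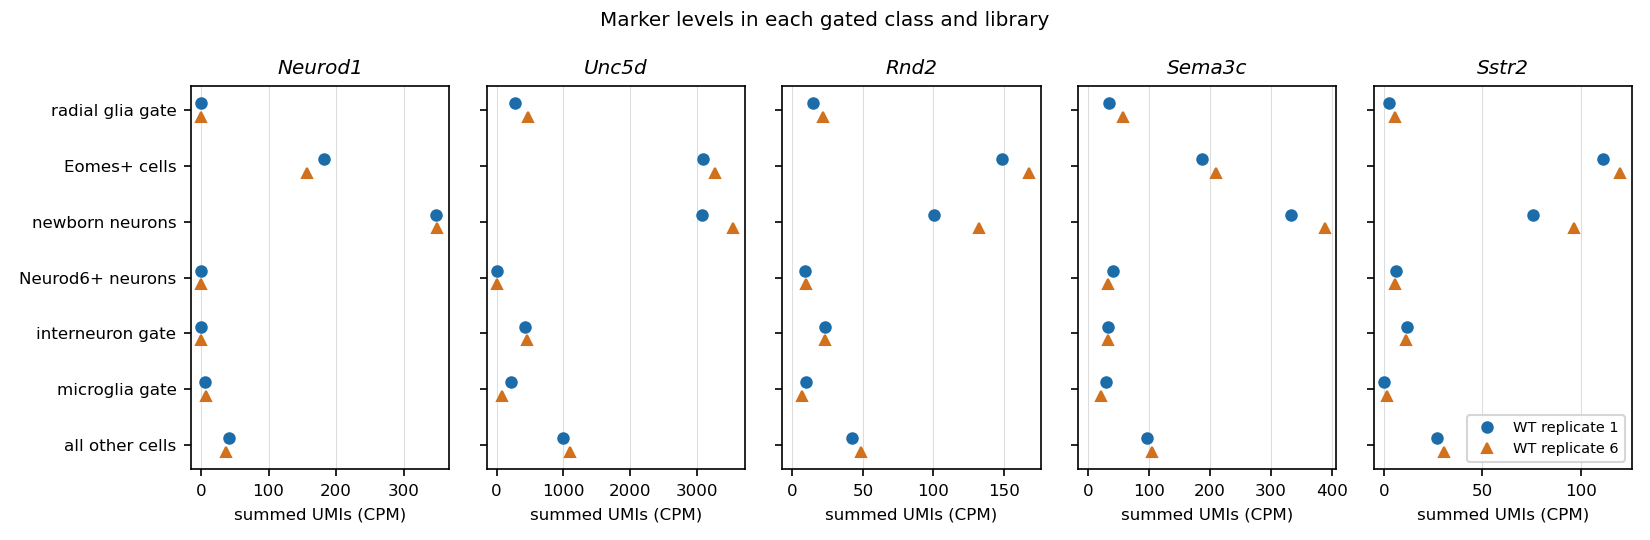
Level of each marker (x axis, CPM of UMIs summed over the cells of a class, linear axis) in 7 classes of cells (rows), with circles for WT replicate 1 and triangles for WT replicate 6. Rnd2 and Sstr2 were highest in Eomes+ cells, Sema3c was highest in newborn neurons, and Neurod6+ neurons held 0 Neurod1 and Unc5d by the gate.

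Cell by cell, each marker outside the gate was seen in a minority of the newborn neurons at equal depth. After thinning every cell to 2000 UMIs, Sema3c was seen in 46.1% ± 0.807 (SD, n = 2 libraries) of newborn neurons, 24.003% ± 0.294 of Eomes+ cells and 5.46% ± 1.11 of Neurod6+ neurons. Rnd2 was seen in 20.4% ± 3.105 of newborn neurons, 25.9% ± 4.28 of Eomes+ cells and 1.79% ± 0.873 of Neurod6+ neurons. Sstr2 was seen in 17.5% ± 2.798, 23.6% ± 1.06 and 0.951% ± 0.242 of the same classes. Interneurons, which are not of this lineage, gave 4.11% ± 0.355 for Sema3c, 4.41% ± 0.576 for Rnd2 and 1.85% ± 0.0547 for Sstr2, and the microglia gate gave 3.38% ± 2.76 and 1.33% ± 1.89 for Sema3c and Rnd2. For Sstr2, 0 of 75 and 0 of 70 microglia had a UMI after thinning, which allows shares of up to 4% and 4.29%. The Sema3c, Rnd2 and Sstr2 shares of newborn neurons were above those of both background classes in each library, while the Neurod6+ shares of Rnd2 and Sstr2 were at or below the interneuron share. Before thinning, with median depths of 5582 and 4931 UMIs in interneurons and 9489 and 8994.5 in microglia, Rnd2 was seen in 49.8% of newborn neurons, 10.9% of interneurons and 7.24% of microglia. Sema3c was then seen in 80.2%, 9.04% and 9.87% of these classes, and Sstr2 in 46.4%, 5.34% and 0.658%. Rnd2 and Sstr2 were seen together in 12 of 302 thinned newborn neurons of WT replicate 1 and in 18 of 292 of WT replicate 6, Rnd2 without Sstr2 in 43 and 48, and Sstr2 without Rnd2 in 35 and 39.

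**Figure D2:**
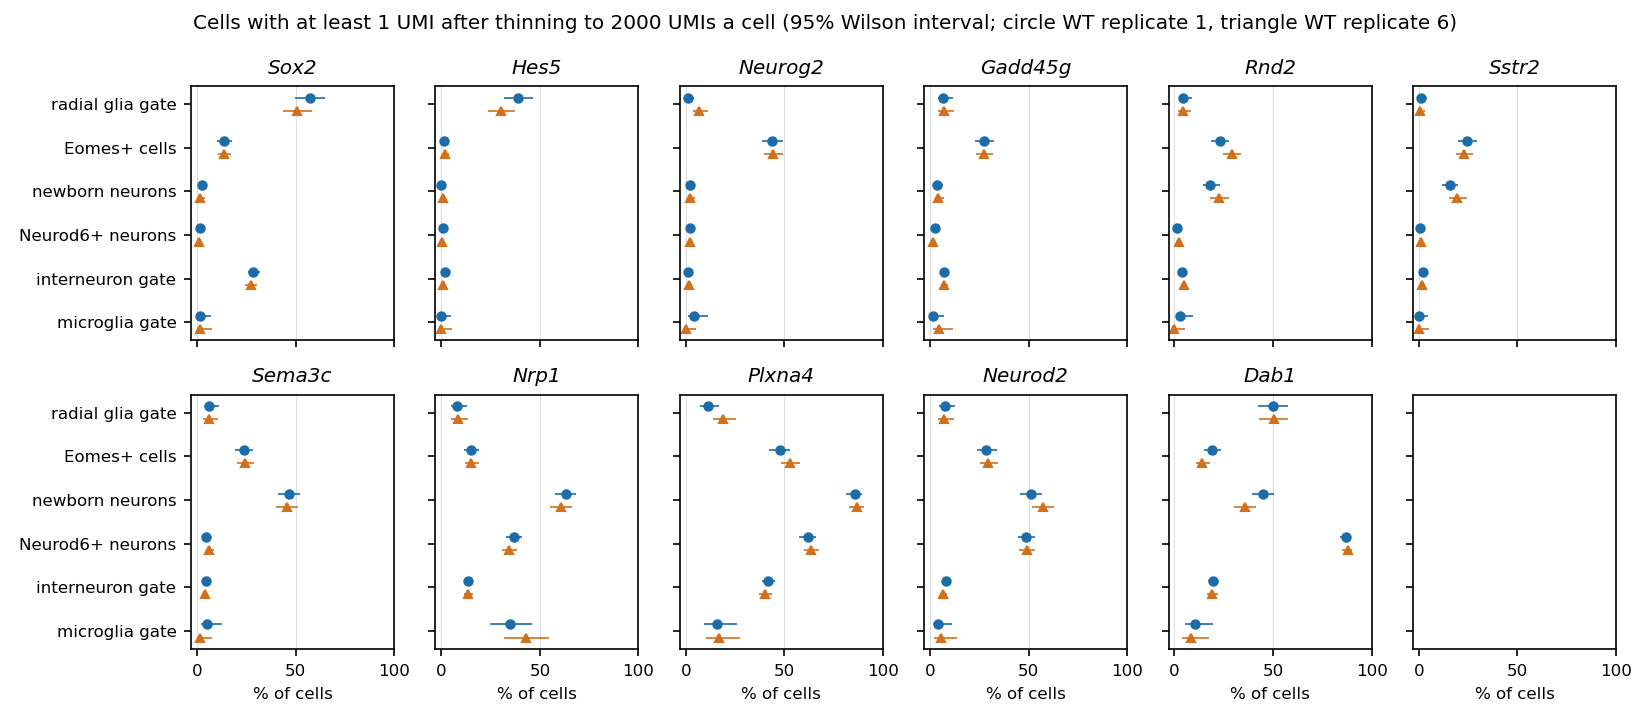
Share of cells with at least 1 UMI of a gene after thinning to 2000 UMIs (x axis, percent) in 6 gated classes (rows), with circles for WT replicate 1, triangles for WT replicate 6 and bars for 95% Wilson intervals. Newborn neurons held the highest shares of Sema3c, Nrp1, Plxna4 and Neurod2 among these classes, and were near 2.18% for Sox2 and 2.19% for Neurog2.

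Against Eomes+ cells, newborn neurons had less RNA of progenitor, Notch and cell cycle genes and more of axon, synapse and guidance genes. Of 12191 genes tested, 1766 (14.5%) were higher in newborn neurons and 1610 (13.2%) were lower, with a median log2 difference of -0.0034 over all genes tested. Against Neurod6+ neurons, 1187 of 12588 genes (9.43%) were higher and 1290 (10.2%) lower, with a median of -0.0063. Without TMM scaling the balance turned in both comparisons, to 1530 higher and 1924 lower against Eomes+ cells and to 1399 higher and 1141 lower against Neurod6+ neurons. Both comparisons use the same sums of newborn neurons, so their values stand side by side here and are no independent checks of each other. Neurod6+ neurons were gated without Unc5d, and when Neurod6+ cells with any Unc5d count were compared in their place (1302 and 1567 cells, an alternative chosen after seeing the data) 690 of 13837 genes (4.99%) were higher and 687 (4.96%) lower, 1377 in all against 2477. Of 116 called differences of the named genes from Neurod6+ neurons, 65 moved by more than 1.5 times on the log2 scale under that alternative. Neurod6+ neurons also held more globin RNA, with the summed erythroid genes at 7770.5 and 5597 CPM against 1249 and 1665 in newborn neurons, and the part of this in the differences was not tested.

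**Figure D3:**
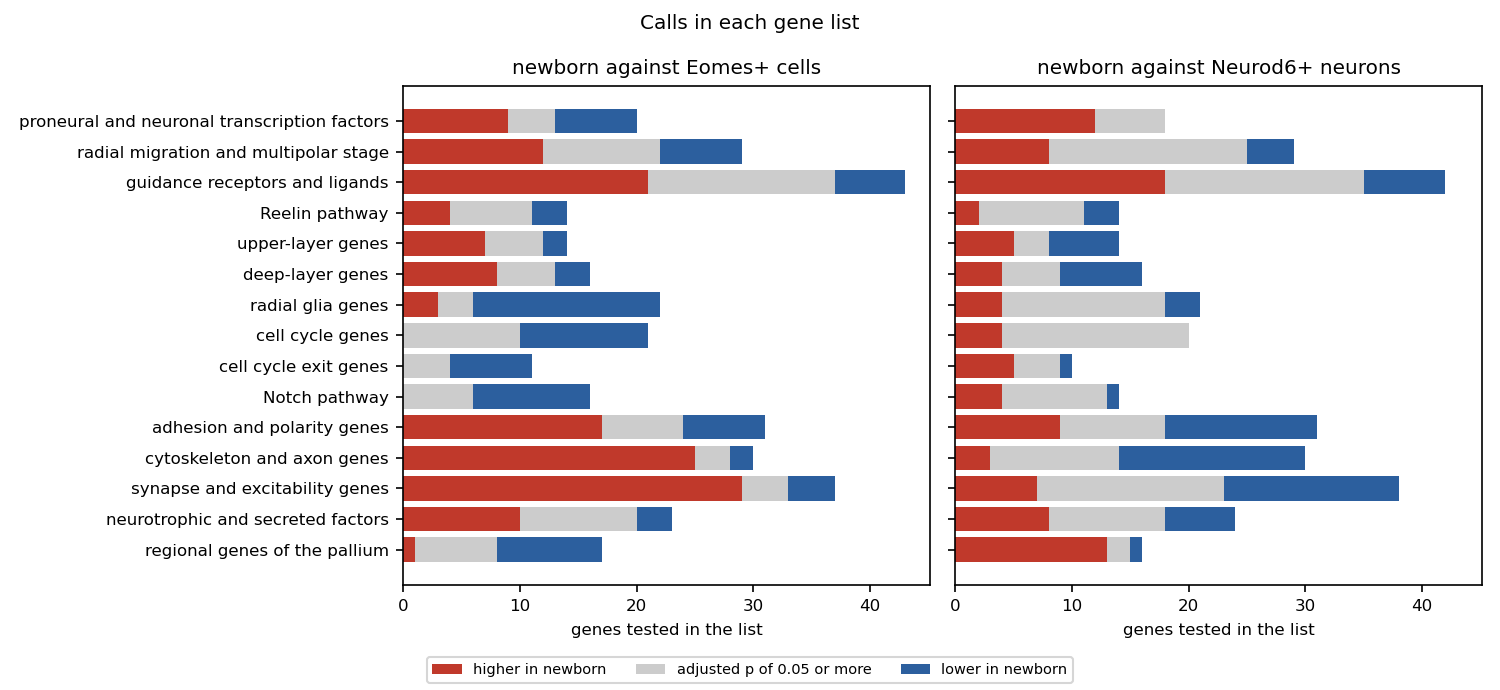
Number of tested genes (x axis) of each gene list (rows) that were higher in newborn neurons, lower, or at an adjusted p of 0.05 or more, against Eomes+ cells on the left and Neurod6+ neurons on the right. Against Eomes+ cells 25 of 30 cytoskeleton and 29 of 37 synapse genes were higher in newborn neurons and 16 of 22 radial glia genes lower, while against Neurod6+ neurons 13 of 16 pallial regional genes were higher.

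The progenitor programme stood low in the newborn neurons. Of the radial glia genes, 3 of the 22 tested were higher, 16 lower and 3 did not pass the test (median log2 difference -1.97) against Eomes+ cells. Sox2, a stem cell transcription factor, stood at 9.698 and 5.07 CPM in newborn neurons and 78.1 and 64.3 in Eomes+ cells (log2 difference -3.17 ± 0.24, adjusted p = 6.3e-05), and its level in Neurod6+ neurons was 7.32 and 5.19 (0.22 ± 0.37, adjusted p = 0.74). Vim, the intermediate filament of radial glia, stood at 70.1 and 88.02 CPM against 539.96 and 462 in Eomes+ cells (-2.60 ± 0.14, adjusted p = 2.0e-05). The newborn values of both genes lay below every Eomes+ value and close to those of Neurod6+ neurons. Pax6, a dorsal progenitor factor, was intermediate, at 18.1 and 13.04 CPM in newborn neurons between 121 and 96.4 in Eomes+ cells and 3.76 and 1.904 in Neurod6+ neurons. For Pax6 the log2 difference was -2.72 ± 0.19, adjusted p = 4.4e-05, from Eomes+ cells and 2.43 ± 0.36, adjusted p = 0.0016, from Neurod6+ neurons. Gli3, the repressor of hedgehog signalling, lay between its neighbours too, at 38.8 and 43.8 CPM against 172 and 152 in Eomes+ cells and 9.49 and 6.23 in Neurod6+ neurons. For Gli3 the log2 difference was -1.90 ± 0.12, adjusted p = 2.6e-05, from Eomes+ cells and 2.35 ± 0.21, adjusted p = 8.8e-05, from Neurod6+ neurons. Against the list's direction, Id4, an inhibitor of bHLH factors, was higher in newborn neurons than in Eomes+ cells, at 65.1 and 63.8 against 28.3 and 28.2 CPM (1.26 ± 0.12, adjusted p = 0.00019). Against Neurod6+ neurons, 4 of the 21 tested were higher, 3 lower and 14 did not pass the test (median log2 difference -0.19).

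Cell cycle genes were lower in newborn neurons than in Eomes+ cells wherever they passed the test. Of the cell cycle genes, 11 of the 21 tested were lower and 10 did not pass the test (median log2 difference -1.23) against Eomes+ cells. Against Neurod6+ neurons, 4 of the 20 tested were higher and 16 did not pass the test (median log2 difference -0.06). The Top2a criterion is part of every gate, so cells with that mitotic gene had been removed from all 3 classes. Mcm3, a subunit of the replicative helicase, stood at 2.82 and 1.45 CPM in newborn neurons and 21.1 and 19.4 in Eomes+ cells (-3.13 ± 0.33, adjusted p = 0.0003). Ccnd2, a G1 cyclin, stood at 77.6 and 75.7 CPM in newborn neurons, 355 and 369 in Eomes+ cells and 39.3 and 39.99 in Neurod6+ neurons. For Ccnd2 the log2 difference was -2.17 ± 0.09, adjusted p = 9.4e-06, from Eomes+ cells and 0.90 ± 0.10, adjusted p = 0.00032, from Neurod6+ neurons. The second call was lost after thinning to 2000 UMIs a cell (0.57, adjusted p = 0.061). Newborn Ccnd2 lay between the classes in both libraries. Of the genes of cell cycle exit, 7 of the 11 tested were lower and 4 did not pass the test (median log2 difference -0.65) against Eomes+ cells. Against Neurod6+ neurons, 5 of the 10 tested were higher, 1 lower and 4 did not pass the test (median log2 difference 0.44). Gadd45g and Btg2, growth arrest genes switched on around the last division, were low in newborn neurons. Gadd45g stood at 15.02 and 21.4 CPM against 222 and 213 in Eomes+ cells (-3.52 ± 0.14, adjusted p = 9.4e-06). Btg2 stood at 13.1 and 15.2 CPM against 125 and 138 (-3.15 ± 0.13, adjusted p = 9.4e-06). Cdkn1b, the Cdk inhibitor p27, stood at 199 and 233 CPM in newborn neurons and 229.6 and 252 in Eomes+ cells (-0.09 ± 0.10, adjusted p = 0.55), and at 94.3 and 109 in Neurod6+ neurons (1.04 ± 0.11, adjusted p = 0.00021).

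Of the Notch pathway genes, 10 of the 16 tested were lower and 6 did not pass the test (median log2 difference -0.83) against Eomes+ cells. Against Neurod6+ neurons, 4 of the 14 tested were higher, 1 lower and 9 did not pass the test (median log2 difference 0.11). The receptor Notch1 stood at 3.75 and 5.07 CPM in newborn neurons and 48.01 and 58.1 in Eomes+ cells (-3.52 ± 0.22, adjusted p = 2.6e-05). Mfng, a glycosyltransferase that modifies Notch receptors, was ordered by class, with 115 and 112 CPM in Eomes+ cells, 20.6 and 33.3 in newborn neurons (-2.02 ± 0.18, adjusted p = 0.00014) and 1.98 and 2.77 in Neurod6+ neurons (3.42 ± 0.33, adjusted p = 0.00013). Maml3, a co-activator of Notch targets, had the same order, with 418 and 489 CPM, 222 and 286 (-0.77 ± 0.13, adjusted p = 0.0039) and 37.8 and 48.5 (2.51 ± 0.15, adjusted p = 1.4e-05). The Notch target Hes5 was near the floor of the data, at 3.13 and 2.54 CPM in newborn neurons.

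Of the proneural and neuronal transcription factors, 9 of the 20 tested were higher, 7 lower and 4 did not pass the test (median log2 difference 0.14) against Eomes+ cells. Against Neurod6+ neurons, 12 of the 18 tested were higher and 6 did not pass the test (median log2 difference 0.58). Neurog2, the proneural factor of cortical progenitors, stood at 19.1 and 19.2 CPM in newborn neurons against 436 and 462 in Eomes+ cells and 7.91 and 9.35 in Neurod6+ neurons. For Neurog2 the log2 difference was -4.48 ± 0.11, adjusted p = 1.3e-06, from Eomes+ cells and 1.10 ± 0.20, adjusted p = 0.0054, from Neurod6+ neurons. Thinned to equal depth, the difference from Neurod6+ neurons was smaller and its call was lost (0.35, adjusted p = 0.68). Insm1, a zinc finger factor of basal progenitors, stood at 88.8 and 104 CPM against 133 and 133 and 32.4 and 32.03. For Insm1 the log2 difference was -0.40 ± 0.10, adjusted p = 0.021, from Eomes+ cells and 1.53 ± 0.12, adjusted p = 4.1e-05, from Neurod6+ neurons. The call against Eomes+ cells was lost with DESeq2 (-0.40, adjusted p = 0.13), after thinning (-0.30, adjusted p = 0.38) and against Eomes+ cells without Mki67 (-0.31, adjusted p = 0.054). Newborn values of both genes lay below every Eomes+ value, Neurog2 by far the more. Neurod2, a neuronal bHLH factor that follows Neurog2, stood at 444 and 442 CPM in newborn neurons, 188 and 198 in Eomes+ cells and 357 and 376 in Neurod6+ neurons. For Neurod2 the log2 difference was 1.27 ± 0.09, adjusted p = 4.6e-05, from Eomes+ cells and 0.23 ± 0.09, adjusted p = 0.1, from Neurod6+ neurons. With the library as a block the last difference passed (0.23, adjusted p = 0.022). Neurod6, its close relative, stood at 717 and 664 CPM in newborn neurons and 452 and 441 in Eomes+ cells (0.70 ± 0.09, adjusted p = 0.00099), and its level in Neurod6+ neurons, 921 and 818, was set by the gate.

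Nhlh1, a bHLH gene expressed briefly after cell cycle exit, was low, at 8.13 and 10.1 CPM in newborn neurons, 16.2 and 17.2 in Eomes+ cells and 0 and 0.346 in Neurod6+ neurons. Sox11, a SoxC factor of young neurons, stood at 3256 and 3379 CPM in newborn neurons, above 2191 and 2325 in Eomes+ cells and 1681 and 1634 in Neurod6+ neurons. For Sox11 the log2 difference was 0.62 ± 0.08, adjusted p = 0.00077, from Eomes+ cells and 0.95 ± 0.07, adjusted p = 3.9e-05, from Neurod6+ neurons. Prdm8, a transcriptional repressor that partners Bhlhe22, was likewise above both, at 96.4 and 93.8 CPM against 21.7 and 25.6 and 60.3 and 56.1. For Prdm8 the log2 difference was 2.07 ± 0.13, adjusted p = 2.6e-05, from Eomes+ cells and 0.66 ± 0.10, adjusted p = 0.0018, from Neurod6+ neurons. Newborn values of Sox11 and Prdm8 did not overlap those of either neighbour. Myt1l, a repressor of non-neuronal genes, stood at 1731 and 1796 CPM against 589 and 516 in Eomes+ cells (1.74 ± 0.10, adjusted p = 2.2e-05).

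Of the guidance receptors and ligands, 21 of the 43 tested were higher, 6 lower and 16 did not pass the test (median log2 difference 0.63) against Eomes+ cells. Against Neurod6+ neurons, 18 of the 42 tested were higher, 7 lower and 17 did not pass the test (median log2 difference 0.19). With Neurod6+ cells of any Unc5d count in the comparison, 18 of 44 were higher and 6 lower. Nrp1 (chromosome 8, 128358591 to 128505476), the neuropilin that binds class 3 semaphorins, stood at 745 and 784 CPM in newborn neurons, 120.02 and 156 in Eomes+ cells and 393 and 379.97 in Neurod6+ neurons. For Nrp1 the log2 difference was 2.53 ± 0.13, adjusted p = 1.8e-05, from Eomes+ cells and 0.94 ± 0.09, adjusted p = 0.00012, from Neurod6+ neurons. At equal depth it was seen in 61.9% ± 1.86 of newborn neurons, 15.2% ± 0.143 of Eomes+ cells, 35.6% ± 1.55 of Neurod6+ neurons and 13.6% ± 0.134 of interneurons. Of the 5 tested plexins, which pair with neuropilins, Plxna2 and Plxna4 were higher in newborn neurons than in both neighbours. Plxna1 was lower than in Neurod6+ neurons, at 12.2 and 11.6 against 21.2 and 21.8 CPM (-0.90 ± 0.17, adjusted p = 0.007), and its difference from Eomes+ cells did not pass (0.36 ± 0.24, adjusted p = 0.32) except with no Unc5d requirement (0.74, adjusted p = 0.029). The Plxna1 call against Neurod6+ neurons was lost with DESeq2 (-0.89, adjusted p = 0.095), after thinning (-1.11, adjusted p = 0.07) and with no Unc5d requirement (-0.52, adjusted p = 0.051). Plxna3 and Plxnd1 passed in neither comparison. Plxna4 stood at 1719 and 1679 CPM against 697 and 779 in Eomes+ cells and 1122 and 1244 in Neurod6+ neurons. For Plxna4 the log2 difference was 1.27 ± 0.09, adjusted p = 4.7e-05, from Eomes+ cells and 0.48 ± 0.08, adjusted p = 0.0032, from Neurod6+ neurons. Plxna2 stood at 892 and 942 CPM against 506 and 546 and 384 and 384. For Plxna2 the log2 difference was 0.87 ± 0.09, adjusted p = 0.00029, from Eomes+ cells and 1.21 ± 0.09, adjusted p = 3.0e-05, from Neurod6+ neurons. Nrp1, Plxna2, Plxna4 and the ligand Sema3c thus had their highest level of the 3 classes in newborn neurons in each library. Sema5a, a transmembrane semaphorin, had another order, at 165 and 193 CPM in newborn neurons between 612 and 550.5 in Eomes+ cells (-1.63 ± 0.11, adjusted p = 4.4e-05) and 23.9 and 18.3 in Neurod6+ neurons (3.04 ± 0.15, adjusted p = 5.2e-06).

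RNA of Slit ligands and of Robo receptors was found in the newborn neurons, and the Slit genes differed among themselves. Slit1 was lower than in both neighbours, at 15.02 and 10.9 CPM in newborn neurons, 32.1 and 31.6 in Eomes+ cells and 45.9 and 40.2 in Neurod6+ neurons. For Slit1 the log2 difference was -1.22 ± 0.19, adjusted p = 0.0025, from Eomes+ cells and -1.76 ± 0.18, adjusted p = 0.00021, from Neurod6+ neurons. Slit2 stood at 293 and 289 CPM, above 141 and 148 in Eomes+ cells and 91.5 and 87.9 in Neurod6+ neurons. For Slit2 the log2 difference was 1.08 ± 0.08, adjusted p = 6.9e-05, from Eomes+ cells and 1.65 ± 0.09, adjusted p = 8.2e-06, from Neurod6+ neurons. Slit3 stood at 314 and 273 CPM against 9.54 and 56.4 in Eomes+ cells (3.22 ± 0.48, adjusted p = 0.0019), a comparison in which the Eomes+ libraries lay far apart, with within-library differences of 5.02 in WT replicate 1 and 2.27 in WT replicate 6. Against Neurod6+ neurons, at 177 and 117 CPM, Slit3 was higher (0.95 ± 0.18, adjusted p = 0.0062), a call lost after thinning (0.28, adjusted p = 0.42). Robo1 stood at 1092 and 1257 CPM, higher than in Eomes+ cells (460.1 and 286, 1.72 ± 0.20, adjusted p = 0.00055), and its difference from Neurod6+ neurons did not pass (-0.19 ± 0.09, adjusted p = 0.22). Robo1 passed as lower than in Neurod6+ neurons after thinning (-0.40, adjusted p = 0.014) and with at least 3 Neurod1 UMIs required (-0.37, adjusted p = 0.045). Robo2 stood at 2746 and 2933 CPM, against 1890.3 and 1961 (0.63 ± 0.08, adjusted p = 0.00084) and 1418 and 1394 (0.97 ± 0.08, adjusted p = 4.5e-05), and the second call was lost against Neurod6+ cells of any Unc5d count (0.13, adjusted p = 0.29). Dcc, a netrin receptor like Unc5d, was at 2048 and 2269 CPM between 4356 and 4230.3 in Eomes+ cells (-0.92 ± 0.08, adjusted p = 0.00015) and 1627 and 1486 in Neurod6+ neurons (0.42 ± 0.09, adjusted p = 0.01), the second call being lost after thinning (0.22, adjusted p = 0.24).

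Of the Flrt genes, which encode adhesion ligands of Unc5 receptors, Flrt2 and Flrt3 were higher than in Eomes+ cells and lower than in Neurod6+ neurons. Flrt1 was higher than in Neurod6+ neurons, at 47.2 and 48.2 against 26.7 and 29.6 CPM (0.71 ± 0.12, adjusted p = 0.0036), and its difference from Eomes+ cells did not pass (-0.0 ± 0.16, adjusted p = 1). The Flrt1 call was lost after thinning (0.47, adjusted p = 0.32). Flrt2 stood at 155 and 142 CPM in newborn neurons, 59.6 and 36.4 in Eomes+ cells and 236 and 252 in Neurod6+ neurons. For Flrt2 the log2 difference was 1.70 ± 0.19, adjusted p = 0.00045, from Eomes+ cells and -0.76 ± 0.09, adjusted p = 0.00046, from Neurod6+ neurons. Flrt3 stood at 71.01 and 72.4, 17.9 and 20.3 and 108 and 126 CPM in the same order. For Flrt3 the log2 difference was 1.97 ± 0.13, adjusted p = 3.5e-05, from Eomes+ cells and -0.75 ± 0.10, adjusted p = 0.0011, from Neurod6+ neurons. Unc5c, another Unc5 receptor, had its highest level in Neurod6+ neurons (199 and 276 CPM), with 88.8 and 70.996 in newborn neurons (-1.61 ± 0.16, adjusted p = 0.00016), although those neurons were gated for 0 Unc5d. Eph receptors differed among themselves. Epha5 was above both neighbours, at 2259.9 and 2472 CPM against 1247 and 1345 and 1044 and 1105. For Epha5 the log2 difference was 0.94 ± 0.09, adjusted p = 0.00018, from Eomes+ cells and 1.09 ± 0.08, adjusted p = 3.6e-05, from Neurod6+ neurons. Epha4 lay between them, at 295 and 331 CPM against 509.9 and 512 in Eomes+ cells (-0.64 ± 0.10, adjusted p = 0.0019) and 115 and 114 in Neurod6+ neurons (1.40 ± 0.10, adjusted p = 2.8e-05).

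**Figure D4:**
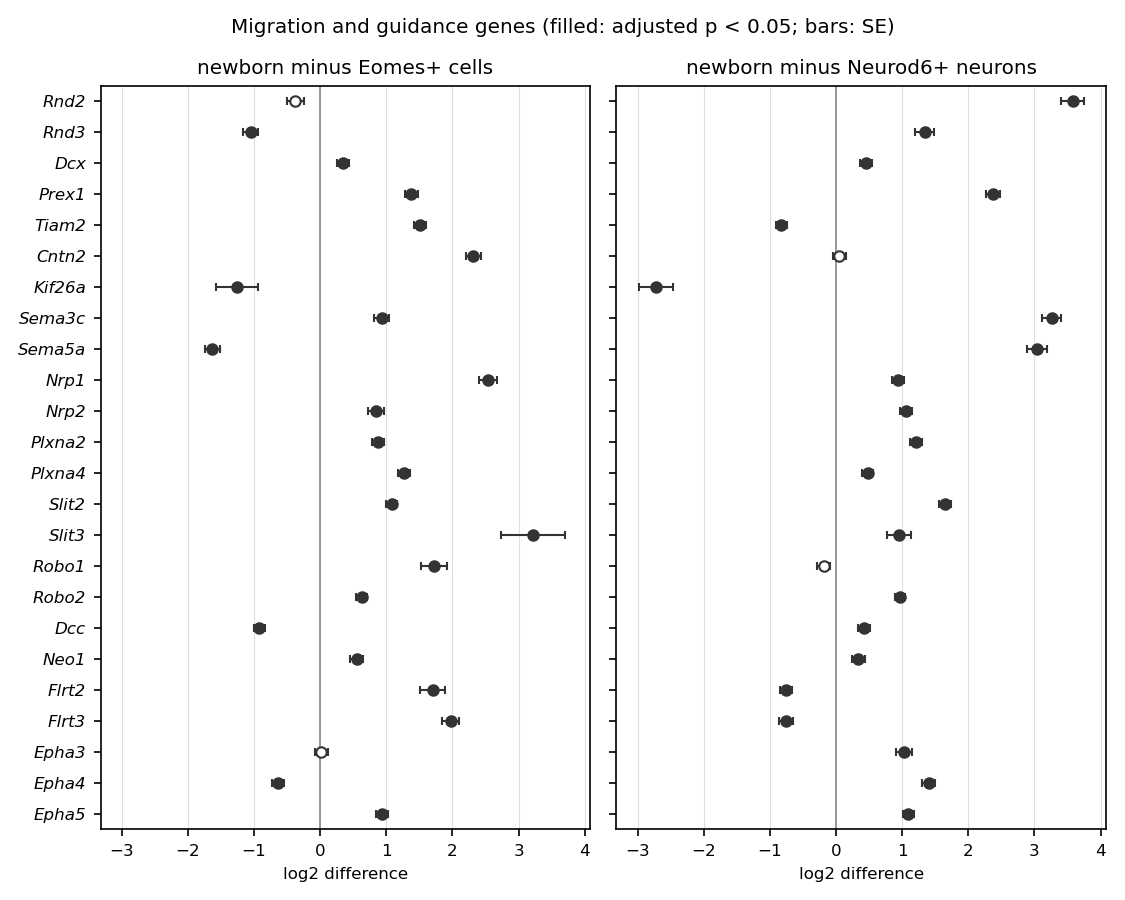
Log2 difference of newborn neurons from Eomes+ cells (left) and from Neurod6+ neurons (right) for 24 migration and guidance genes (rows), with bars for the SE of edgeR's fit over 2 libraries a class and filled circles where adjusted p was under 0.05. Prex1, Sema3c, Nrp1, Nrp2, Plxna2, Plxna4, Slit2, Slit3, Robo2 and Epha5 lie right of zero with filled circles in both panels. At equal depth Nrp2 lost its call against Eomes+ cells (0.42, adjusted p = 0.33) and Slit3 against Neurod6+ neurons.

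Genes of radial migration moved both ways. Of this list, 12 of the 29 tested were higher, 7 lower and 10 did not pass the test (median log2 difference 0.27) against Eomes+ cells. Against Neurod6+ neurons, 8 of the 29 tested were higher, 4 lower and 17 did not pass the test (median log2 difference 0.01). Prex1, a Rac exchange factor, stood at 148 and 164 CPM in newborn neurons, above 63.05 and 62.6 in Eomes+ cells and 30.4 and 27.9 in Neurod6+ neurons. For Prex1 the log2 difference was 1.38 ± 0.10, adjusted p = 4.4e-05, from Eomes+ cells and 2.37 ± 0.11, adjusted p = 4.6e-06, from Neurod6+ neurons. Tiam2, another Rac exchange factor, lay between them instead, with 601 and 617 CPM in newborn neurons, 218 and 229 in Eomes+ cells and 1041 and 1052 in Neurod6+ neurons. For Tiam2 the log2 difference was 1.51 ± 0.09, adjusted p = 2.4e-05, from Eomes+ cells and -0.83 ± 0.08, adjusted p = 0.00015, from Neurod6+ neurons. Prex1 was thus highest in newborn neurons and Tiam2 in Neurod6+ neurons. Dcx, the microtubule protein doublecortin of migrating neurons, differed little between the classes, at 629.7 and 676 CPM against 515 and 562 (0.35 ± 0.09, adjusted p = 0.026) and 467 and 458 (0.45 ± 0.09, adjusted p = 0.0075), and the first call was lost without TMM scaling (0.28, adjusted p = 0.064). Rnd3, the small GTPase related to Rnd2, lay between its neighbours, with 44.4 and 52.2 CPM in newborn neurons, 106 and 103 in Eomes+ cells and 19.4 and 17.5 in Neurod6+ neurons. For Rnd3 the log2 difference was -1.05 ± 0.11, adjusted p = 0.00037, from Eomes+ cells and 1.34 ± 0.15, adjusted p = 0.00029, from Neurod6+ neurons. Cntn2, a contactin of growing axons, stood at 245 and 248 CPM against 57.6 and 46.5 in Eomes+ cells (2.31 ± 0.11, adjusted p = 1.4e-05).

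Of the Reelin pathway genes, 4 of the 14 tested were higher, 3 lower and 7 did not pass the test (median log2 difference 0.06) against Eomes+ cells. Against Neurod6+ neurons, 2 of the 14 tested were higher, 3 lower and 9 did not pass the test (median log2 difference -0.04). Dab1, the adaptor that passes on the Reelin signal, stood at 902 and 740.02 CPM in newborn neurons, 268 and 141 in Eomes+ cells and 2107 and 2132 in Neurod6+ neurons. For Dab1 the log2 difference was 2.07 ± 0.26, adjusted p = 0.00078, from Eomes+ cells and -1.41 ± 0.10, adjusted p = 3.2e-05, from Neurod6+ neurons. The receptor Vldlr followed Dab1, at 30.97 and 23.9, 10.99 and 8.46 and 46.5 and 53.7 CPM. For Vldlr the log2 difference was 1.57 ± 0.23, adjusted p = 0.0017, from Eomes+ cells and -0.91 ± 0.15, adjusted p = 0.0028, from Neurod6+ neurons. The other receptor, Lrp8, had the opposite order, at 258 and 259 CPM in newborn neurons, 339.8 and 363 in Eomes+ cells and 100.05 and 113 in Neurod6+ neurons. For Lrp8 the log2 difference was -0.38 ± 0.09, adjusted p = 0.015, from Eomes+ cells and 1.23 ± 0.09, adjusted p = 3.4e-05, from Neurod6+ neurons. Its call against Eomes+ cells was lost after thinning (-0.33, adjusted p = 0.11) and with at least 3 Neurod1 UMIs required (-0.28, adjusted p = 0.096). Reln itself, secreted by Cajal-Retzius cells and interneurons, stood at 18.8 and 18.8 CPM in newborn neurons.

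Of the upper-layer genes, 7 of the 14 tested were higher, 2 lower and 5 did not pass the test (median log2 difference 0.66) against Eomes+ cells. Against Neurod6+ neurons, 5 of the 14 tested were higher, 6 lower and 3 did not pass the test (median log2 difference -0.18). Cux2, a homeobox gene of the upper layers, was highest in newborn neurons, at 362 and 411 CPM in newborn neurons against 154 and 161 in Eomes+ cells and 143 and 162 in Neurod6+ neurons. For Cux2 the log2 difference was 1.36 ± 0.10, adjusted p = 4.8e-05, from Eomes+ cells and 1.29 ± 0.10, adjusted p = 5.4e-05, from Neurod6+ neurons. Cux1 was higher as well, at 474 and 472 CPM against 311 and 298 (0.70 ± 0.09, adjusted p = 0.00078) and 264 and 303 (0.69 ± 0.09, adjusted p = 0.001), but the second call was lost against Neurod6+ cells of any Unc5d count (0.06, adjusted p = 0.68). Pou3f2, a POU factor of late-born neurons and their progenitors, stood at 389 and 369.8 CPM, higher than in Neurod6+ neurons (137 and 153 CPM, 1.34 ± 0.09, adjusted p = 2.8e-05), and its difference from Eomes+ cells did not pass (409.8 and 405 CPM, -0.03 ± 0.09, adjusted p = 0.82) except with no Unc5d requirement (-0.29, adjusted p = 0.036). Other genes of the list were far lower than in Neurod6+ neurons. Mef2c, a factor of maturing neurons, stood at 292 and 260.1 CPM against 1499 and 1455 in Neurod6+ neurons (-2.47 ± 0.09, adjusted p = 1.9e-06). Rorb, known from layer 4, stood at 61.3 and 55.1 CPM against 156 and 138 (-1.38 ± 0.11, adjusted p = 5.6e-05).

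Of the deep-layer genes, 8 of the 16 tested were higher, 3 lower and 5 did not pass the test (median log2 difference 0.58) against Eomes+ cells. Against Neurod6+ neurons, 4 of the 16 tested were higher, 7 lower and 5 did not pass the test (median log2 difference -0.31). The 4 higher were Tbr1, Nfia, Nfib and Wnt7b. The Tbr1 call was lost with DESeq2 (0.38, adjusted p = 0.21), after thinning (0.44, adjusted p = 0.099) and with 3000 to 30000 UMIs and under 5% mitochondrial UMIs required (0.26, adjusted p = 0.14). It was also lost with at least 3 Neurod1 UMIs required (0.31, adjusted p = 0.11), with no Unc5d requirement (0.21, adjusted p = 0.21) and with Neurod2 in place of Neurod6 in the comparison gate (0.25, adjusted p = 0.13). The balance turned against Neurod6+ cells of any Unc5d count, with 6 of 16 higher and 3 lower (median log2 difference 0.16). Hs3st4, a sulfotransferase gene that marks layer 6, stood at 27.2 and 39.5 CPM in newborn neurons against 362 and 316 in Neurod6+ neurons (-3.40 ± 0.16, adjusted p = 4.6e-06). Tle4, a corepressor of layer 6, stood at 108 and 115 against 216 and 181 (-0.88 ± 0.11, adjusted p = 0.00065). Fezf2, the selector of subcerebral neurons, stood at 21.9 and 38.4 against 69.996 and 58.3 (-1.15 ± 0.21, adjusted p = 0.0057). The Fezf2 difference from Eomes+ cells did not pass in the main fit. It passed as lower in newborn neurons under several alternatives. Among these were the library as a block (-0.67, adjusted p = 0.009), likely doublets left out (-0.95, adjusted p = 0.0029) and thinning (-0.97, adjusted p = 0.028). Against Neurod6+ cells of any Unc5d count the calls for Tle4 (-0.24, adjusted p = 0.11) and Fezf2 (-0.55, adjusted p = 0.13) were lost. Tbr1, a T-box factor that follows Eomes, stood at 95.1 and 110.1 CPM, above Eomes+ cells (63.05 and 69.1, 0.70 ± 0.11, adjusted p = 0.0025). Bcl11b, a zinc finger factor of layer 5, stood at 201 and 239.8 against 97.8 and 82.3 in Eomes+ cells (1.36 ± 0.12, adjusted p = 0.00014) and 270.3 and 243 in Neurod6+ neurons (-0.27 ± 0.12, adjusted p = 0.15), where the block fit passed (-0.27, adjusted p = 0.021). Foxp2, a forkhead factor, was lower in newborn neurons than in Eomes+ cells, at 91.7 and 118 against 483 and 515 CPM (-2.19 ± 0.13, adjusted p = 2.3e-05).

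**Figure D5:**
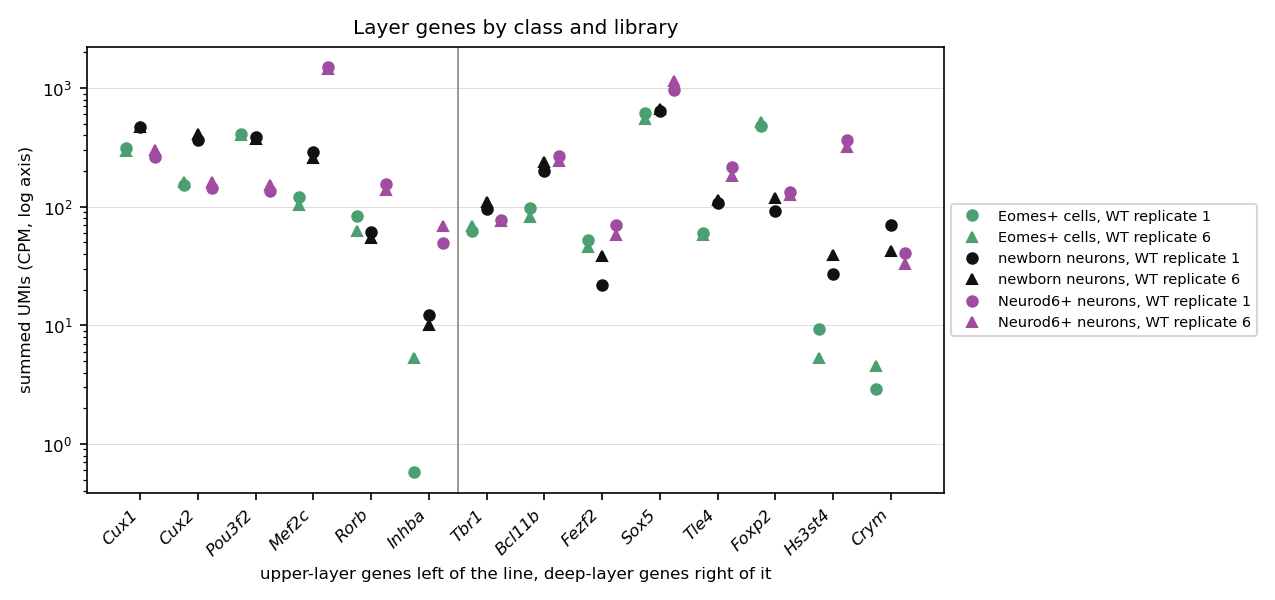
Level of 6 upper-layer and 8 deep-layer genes (y axis, CPM of summed UMIs, log axis) in Eomes+ cells (green), newborn neurons (black) and Neurod6+ neurons (purple), with circles for WT replicate 1 and triangles for WT replicate 6. Cux1 and Cux2 peak in newborn neurons, while Mef2c at 292 and 260.1 and Hs3st4 at 27.2 and 39.5 CPM lie far below Neurod6+ neurons.

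Of the adhesion and polarity genes, 17 of the 31 tested were higher, 7 lower and 7 did not pass the test (median log2 difference 0.70) against Eomes+ cells. Against Neurod6+ neurons, 9 of the 31 tested were higher, 13 lower and 9 did not pass the test (median log2 difference -0.20). Among the cadherins, Cdh4 stood at 566 and 656 CPM in newborn neurons, 418 and 368 in Eomes+ cells and 87.99 and 99.9 in Neurod6+ neurons. For Cdh4 the log2 difference was 0.70 ± 0.11, adjusted p = 0.0025, from Eomes+ cells and 2.65 ± 0.11, adjusted p = 3.6e-06, from Neurod6+ neurons. Cdh13 stood at 159.5 and 155, 53.5 and 45.9 and 578 and 638. For Cdh13 the log2 difference was 1.73 ± 0.11, adjusted p = 2.6e-05, from Eomes+ cells and -1.99 ± 0.09, adjusted p = 4.6e-06, from Neurod6+ neurons. Cdh4 was thus above both neighbours and Cdh13 between them. The zinc finger repressors of epithelial genes had opposite orders. Zeb1 stood at 104 and 104 CPM against 332 and 327 in Eomes+ cells and 35.8 and 33.4 in Neurod6+ neurons. For Zeb1 the log2 difference was -1.59 ± 0.08, adjusted p = 2.0e-05, from Eomes+ cells and 1.54 ± 0.10, adjusted p = 2.5e-05, from Neurod6+ neurons. Zeb2 stood at 946 and 851 CPM against 375 and 386 and 1099.96 and 1249.8. For Zeb2 the log2 difference was 1.31 ± 0.10, adjusted p = 5.2e-05, from Eomes+ cells and -0.43 ± 0.09, adjusted p = 0.011, from Neurod6+ neurons. Pard3, a polarity scaffold, was lower than in Eomes+ cells, at 94.5 and 94.9 against 281 and 267 CPM (-1.46 ± 0.08, adjusted p = 2.2e-05). Chl1, an L1-family adhesion molecule, stood at 668 and 726 CPM, above 251 and 267 (1.49 ± 0.09, adjusted p = 3.1e-05) and 449.6 and 446 (0.59 ± 0.09, adjusted p = 0.0018).

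Of the cytoskeleton and axon genes, 25 of the 30 tested were higher, 2 lower and 3 did not pass the test (median log2 difference 0.92) against Eomes+ cells. Against Neurod6+ neurons, 3 of the 30 tested were higher, 16 lower and 11 did not pass the test (median log2 difference -0.29). Stmn2, a microtubule regulator of growth cones, stood at 1194 and 1167 CPM in newborn neurons, 313 and 336 in Eomes+ cells and 2176 and 2397 in Neurod6+ neurons. For Stmn2 the log2 difference was 1.93 ± 0.09, adjusted p = 1.4e-05, from Eomes+ cells and -1.0 ± 0.08, adjusted p = 4.3e-05, from Neurod6+ neurons. Mapt, which encodes tau, stood at 530.3 and 437 CPM, 154 and 164 and 914 and 959 in the same classes. For Mapt the log2 difference was 1.67 ± 0.12, adjusted p = 4.6e-05, from Eomes+ cells and -1.0 ± 0.10, adjusted p = 0.00022, from Neurod6+ neurons. Gap43, a growth cone protein, stood at 291 and 276, 128 and 118 and 539 and 584. For Gap43 the log2 difference was 1.27 ± 0.09, adjusted p = 4.6e-05, from Eomes+ cells and -1.03 ± 0.09, adjusted p = 8.5e-05, from Neurod6+ neurons. All 3 genes were intermediate in newborn neurons in each library. Nrn1, a GPI-anchored neurite protein, had the reverse order, at 115 and 128 CPM between 274 and 266 in Eomes+ cells and 29.3 and 30.5 in Neurod6+ neurons. For Nrn1 the log2 difference was -1.09 ± 0.09, adjusted p = 8.9e-05, from Eomes+ cells and 1.97 ± 0.11, adjusted p = 9.6e-06, from Neurod6+ neurons. Against Neurod6+ cells of any Unc5d count, 8 of the 30 genes were lower rather than 16, while over all genes tested 4.96% were lower rather than 10.2%.

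Of the genes of synapses and excitability, 29 of the 37 tested were higher, 4 lower and 4 did not pass the test (median log2 difference 1.28) against Eomes+ cells. Against Neurod6+ neurons, 7 of the 38 tested were higher, 15 lower and 16 did not pass the test (median log2 difference -0.27). Kcnq3, an M-current potassium channel, was highest in newborn neurons, at 959 and 1043 CPM against 315 and 288 and 535 and 446. For Kcnq3 the log2 difference was 1.80 ± 0.10, adjusted p = 2.0e-05, from Eomes+ cells and 0.98 ± 0.11, adjusted p = 0.00036, from Neurod6+ neurons. Gria2, an AMPA receptor subunit, stood at 1561 and 1542 CPM, above 569 and 535 (1.56 ± 0.09, adjusted p = 2.1e-05) and 1007 and 1002 (0.58 ± 0.08, adjusted p = 0.0008), the second call being lost against Neurod6+ cells of any Unc5d count (0.15, adjusted p = 0.23). The NMDA receptor subunit Grin2b was between its neighbours, at 433 and 372 CPM against 183 and 101 and 985 and 923. For Grin2b the log2 difference was 1.57 ± 0.24, adjusted p = 0.0019, from Eomes+ cells and -1.29 ± 0.10, adjusted p = 4.8e-05, from Neurod6+ neurons. Slc17a6, the vesicular glutamate transporter VGLUT2, was ordered by class, with 254 and 262 CPM in Eomes+ cells, 174 and 213 in newborn neurons (-0.35 ± 0.11, adjusted p = 0.044) and 45.7 and 49.7 in Neurod6+ neurons (1.97 ± 0.12, adjusted p = 1.4e-05). Its call against Eomes+ cells was lost under 5 alternatives, among them DESeq2 (-0.35, adjusted p = 0.13). Slc17a7, the transporter VGLUT1 of mature cortex, was low, at 10.01 and 14.5 CPM. Syn2, a synaptic vesicle protein, was lower than in Eomes+ cells (135 and 117 against 192 and 219 CPM, -0.64 ± 0.10, adjusted p = 0.0028) and higher than in Neurod6+ neurons (35.6 and 38.8, 1.71 ± 0.11, adjusted p = 1.9e-05). The sodium channel gene Scn2a was lower than in Neurod6+ neurons (48.5 and 44.6 against 144 and 150.1, -1.70 ± 0.10, adjusted p = 1.2e-05).

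Of the secreted factors and their receptors, 10 of the 23 tested were higher, 3 lower and 10 did not pass the test (median log2 difference 0.21) against Eomes+ cells. Against Neurod6+ neurons, 8 of the 24 tested were higher, 6 lower and 10 did not pass the test (median log2 difference -0.08). Nrg1, an ErbB ligand, stood at 4148 and 4807 CPM in newborn neurons, between 8265 and 9036 in Eomes+ cells and 1095 and 1043 in Neurod6+ neurons. For Nrg1 the log2 difference was -0.88 ± 0.09, adjusted p = 0.00028, from Eomes+ cells and 2.02 ± 0.09, adjusted p = 4.4e-06, from Neurod6+ neurons. Nrg3, another neuregulin, had the reverse order, at 654 and 587, 268 and 178 and 2102 and 2149 CPM. For Nrg3 the log2 difference was 1.54 ± 0.18, adjusted p = 0.00051, from Eomes+ cells and -1.82 ± 0.09, adjusted p = 4.6e-06, from Neurod6+ neurons. In both libraries Nrg1 thus went down and Nrg3 up from Eomes+ cells over newborn to Neurod6+ neurons. Mdk, the growth factor midkine, stood at 199 and 234 CPM against 770.2 and 851 and 71.6 and 70.8. For Mdk the log2 difference was -1.84 ± 0.11, adjusted p = 2.6e-05, from Eomes+ cells and 1.56 ± 0.10, adjusted p = 2.2e-05, from Neurod6+ neurons. Ntrk3, the neurotrophin-3 receptor, stood at 565 and 655 CPM, higher than in Eomes+ cells (245 and 241 CPM, 1.39 ± 0.10, adjusted p = 5.6e-05), and its difference from Neurod6+ neurons did not pass (615 and 602 CPM, -0.04 ± 0.10, adjusted p = 0.81).

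Of the regional genes of the pallium, many of which pattern progenitors, 1 of the 17 tested was higher, 9 lower and 7 did not pass the test (median log2 difference -0.46) against Eomes+ cells. Against Neurod6+ neurons, 13 of the 16 tested were higher, 1 lower and 2 did not pass the test (median log2 difference 1.33). Zbtb20, a zinc finger factor, stood at 1218 and 1425 CPM in newborn neurons, 1837 and 1961 in Eomes+ cells and 259.8 and 239 in Neurod6+ neurons. For Zbtb20 the log2 difference was -0.46 ± 0.10, adjusted p = 0.01, from Eomes+ cells and 2.36 ± 0.11, adjusted p = 4.6e-06, from Neurod6+ neurons. With at least 3 Neurod1 UMIs required, the call against Eomes+ cells was lost (-0.07, adjusted p = 0.75). Meis2, a homeobox gene, stood at 2459.5 and 2379, 2669.7 and 2461 and 661 and 615. For Meis2 the log2 difference was -0.02 ± 0.08, adjusted p = 0.91, from Eomes+ cells and 1.88 ± 0.08, adjusted p = 4.2e-06, from Neurod6+ neurons. Tfap2d, an AP-2 factor and the only gene of the list that passed as higher than in Eomes+ cells, stood at 84.8 and 72.4 CPM against 43.96 and 43.7 and 19.6 and 14.2. For Tfap2d the log2 difference was 0.91 ± 0.12, adjusted p = 0.0012, from Eomes+ cells and 2.18 ± 0.17, adjusted p = 3.9e-05, from Neurod6+ neurons. Tfap2c, the AP-2 factor of basal progenitors, stood at 0.626 and 2.898 CPM in newborn neurons and 43.96 and 38.9 in Eomes+ cells.

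Outside the lists, the genes with the largest differences from Eomes+ cells were named by size. The 10 highest in newborn neurons had log2 differences from 2.58 to 3.21 and were the glycine receptor gene Glra2, the muscarinic receptor gene Chrm3, the glutamate receptor gene Grm7, the GABA-B receptor gene Gabbr2, the Eph receptor gene Epha6, Dok6, Zfp385b, Rgs6, Mgat4c and 6530403H02Rik. Epha6 stood at 146 and 134 CPM against 22.6 and 21.7 in Eomes+ cells (2.73 ± 0.11, adjusted p = 9.4e-06). Dok6, an adaptor of receptor tyrosine kinases, stood at 603 and 556 against 106 and 76.7 (2.73 ± 0.16, adjusted p = 2.2e-05). Several of these genes encode receptors for neurotransmitters. Glra2 stood at 59.1 and 60.1 CPM against 9.54 and 3.95 (3.21 ± 0.27, adjusted p = 9.9e-05, within-library differences 2.61 in WT replicate 1 and 3.88 in WT replicate 6). The 10 lowest had log2 differences from -4.48 to -3.12 and were Smoc1, Tmem163, Agbl4, Sox6, Rhbdl3, Myo10, Thsd4, Chd7, Lama2 and Rgs20. Sox6, a SoxD factor, stood at 589 and 594 CPM in Eomes+ cells and 46.6 and 53.6 in newborn neurons (-3.50 ± 0.11, adjusted p = 5.5e-06). Chd7, a chromatin remodeller, stood at 287 and 289 CPM in Eomes+ cells and 33.2 and 27.2 in newborn neurons (-3.18 ± 0.11, adjusted p = 7.3e-06). Smoc1, a secreted calcium-binding protein, stood at 2.19 and 4.35 CPM against 78.7 and 72.2 (-4.48 ± 0.23, adjusted p = 1.7e-05). The newborn level of Sox6 was above that of Neurod6+ neurons (20.4 and 11.1 CPM, 1.64 ± 0.24, adjusted p = 0.0017), with within-library differences of 1.19 in WT replicate 1 and 2.27 in WT replicate 6, and so was that of Chd7 (15.6 and 16.3 CPM, 0.88 ± 0.16, adjusted p = 0.0051), whose call was lost after thinning (0.62, adjusted p = 0.2).

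Against Neurod6+ neurons, the 10 genes highest in newborn neurons had log2 differences from 2.69 to 4.59 and were Gm32647, Ltbp1, Zfhx4, Gm29260, Prdm16, Pdzrn3, Cdk6, Pcp4, Kcnc2 and 2600014E21Rik. Ltbp1, which binds latent TGF-beta, stood at 107 and 119 CPM against 5.34 and 6.23 (4.22 ± 0.14, adjusted p = 1.4e-06). Zfhx4, a zinc finger homeobox gene, stood at 264 and 269.9 against 13.4 and 25.6 (3.71 ± 0.20, adjusted p = 9.6e-06). Against Eomes+ cells 2 of the 10 were higher in newborn neurons (Gm32647 and Pdzrn3), 3 lower (Gm29260, Prdm16 and Cdk6), and 5 did not pass. Zfhx4, among the 5, was lower than in Eomes+ cells with the library as a block (-0.25, adjusted p = 0.0064) and without TMM scaling (-0.32, adjusted p = 0.028). Pcp4, a calmodulin-binding peptide, was another, at 221 and 221 CPM in newborn neurons and 253 and 209 in Eomes+ cells (0.0 ± 0.11, adjusted p = 0.99). The 10 lowest had log2 differences from -4.30 to -2.63 and were Dpp10, Sybu, Gucy1a1, Prickle1, Gm49678, Grm3, Nin, Dync1i1, Mdga2 and 4833422C13Rik. Dync1i1, a cytoplasmic dynein intermediate chain, stood at 106 and 76.4 CPM against 602 and 666 (-2.84 ± 0.15, adjusted p = 7.6e-06). Nin, the centrosomal protein ninein, stood at 30.7 and 34.8 against 246 and 259.8 (-3.0 ± 0.10, adjusted p = 1.4e-06). Sybu, the kinesin-linked protein syntabulin, stood at 29.7 and 32.2 against 312 and 376 (-3.52 ± 0.12, adjusted p = 1.4e-06). These 3 of the 10 genes encode microtubule-associated proteins, and all 10 were chosen by the size of their difference. Gm49678 rests on libraries that lay apart, with within-library differences of -2.26 in WT replicate 1 and -4.45 in WT replicate 6.

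Genes highest in newborn neurons of the 3 classes were also named by size, taking for each gene the smaller of its 2 differences. They were Gm32647, Chrm3, Ndst3, Gm35835, Adamts2, Zfp385b, Lsamp, 9530059O14Rik, Prex1 and Pdzrn3. The long noncoding RNA Gm32647 (chromosome 7, 94042496 to 95326426) led them, at 664 and 483 CPM in newborn neurons, 95.7 and 137 in Eomes+ cells (2.37 ± 0.20, adjusted p = 9.9e-05) and 33.4 and 12.98 in Neurod6+ neurons (4.59 ± 0.35, adjusted p = 3.9e-05, within-library differences 4.31 in WT replicate 1 and 5.21 in WT replicate 6). Lsamp, a limbic-system adhesion molecule, was the most abundant of them in UMIs, at 4024 and 4330.4 CPM against 1210.1 and 1328 and 1023 and 1562. For Lsamp the log2 difference was 1.79 ± 0.09, adjusted p = 1.4e-05, from Eomes+ cells and 1.65 ± 0.16, adjusted p = 0.00014, from Neurod6+ neurons. Ndst3, a heparan sulfate sulfotransferase, stood at 231 and 195 CPM against 52.9 and 73.8 and 37.96 and 45.4. For Ndst3 the log2 difference was 1.82 ± 0.15, adjusted p = 0.0001, from Eomes+ cells and 2.31 ± 0.12, adjusted p = 7.6e-06, from Neurod6+ neurons. Chrm3 stood at 68.2 and 52.5 CPM against 7.23 and 7.33 (3.12 ± 0.20, adjusted p = 3.1e-05) and 9.095 and 15.9 (2.21 ± 0.23, adjusted p = 0.0002, within-library differences 2.89 in WT replicate 1 and 1.72 in WT replicate 6). Adamts2, a procollagen peptidase, stood at 62.6 and 55.8 CPM against 19.97 and 15.9 in Neurod6+ neurons (1.68 ± 0.15, adjusted p = 0.0001), but its direction turned against Neurod6+ cells of any Unc5d count (-0.02, adjusted p = 0.93).

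The gene deleted elsewhere in the series, Dot1l, the histone H3 lysine 79 methyltransferase, stood at 39.1 and 42.4 CPM in newborn neurons, 46.3 and 38.3 in Eomes+ cells and 32.8 and 34.1 in Neurod6+ neurons. For Dot1l the log2 difference was 0.01 ± 0.14, adjusted p = 0.97, from Eomes+ cells and 0.23 ± 0.12, adjusted p = 0.23, from Neurod6+ neurons. Dnmt1, the DNA methyltransferase that the study is about, stood at 48.8 and 53.6, 37.6 and 42.8 (0.41 ± 0.13, adjusted p = 0.047) and 47.7 and 56.4 CPM (-0.07 ± 0.12, adjusted p = 0.73), and its call against Eomes+ cells was lost in 9 alternatives, with DESeq2 for example (0.41, adjusted p = 0.34). Sst, the somatostatin gene, was at 3.44 and 5.43 CPM in newborn neurons.

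Markers of other cell types were low in the newborn neurons. The summed interneuron markers, part of which the gate excludes, stood at 207 and 235 CPM against 10488 and 11066 in the interneuron gate, and Gad1 was at 2.19 and 2.17. The summed microglia markers stood at 53.8 and 93.8 CPM and the summed endothelial markers at 64.8 and 7.24. WT replicate 6 held more microglial and WT replicate 1 more endothelial RNA in this class. The Cajal-Retzius factors Lhx1 and Lhx5 were at 0 in both libraries, and summed Cajal-Retzius markers stood at 65.7 and 64.1. The 7 erythroid genes summed to 1249 and 1665 CPM in newborn neurons, 1556 and 1572 in Eomes+ cells and 14590.5 and 21303 in all other cells, and of the 6 tested against Neurod6+ neurons 5 were lower, the globin gene Hbb-bs among them at 648 and 899.8 against 3774 and 2790.2 CPM (-2.13 ± 0.18, adjusted p = 7.2e-05). Likely doublets made up 9.24% and 8.90% of the newborn neurons against 11.4% and 10.5% of all other cells. Their number in each library was preset, so these shares show how the marked cells fell among classes and are no measured doublet rates. The compared classes held fewer, at 7.53% and 7.87% of Eomes+ cells and 5.28% and 4.43% of Neurod6+ neurons.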

How the data were processed

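Single-cell suspensions of 2 WT embryos at embryonic day 16.5 were profiled with the 10x Genomics 3' v3.1 chemistry, and per the labels the authors processed the reads with Cell Ranger 7.0.0 on mm10 and deposited raw UMI counts per gene and barcode. Whether intronic reads were counted, and how doublets were treated, is not given in the sources used here. Barcodes with 1500 to 60000 UMIs and less than 10% mitochondrial UMIs were kept. Likely doublets were the passing cells with the highest Scrublet scores (scanpy 1.11.5). Their number was preset from an assumed rate of 0.8% per 1000 barcodes, which gave 920 and 857 cells. They were kept, and leaving them out was an alternative. The members, the gates and the gene lists were chosen with earlier results of these data known.

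For each class, the UMI counts of its cells were added up within a library, and classes were compared with edgeR 4.0.16 (quasi-likelihood test, two-sided, TMM scaling, filterByExpr, Benjamini-Hochberg adjustment over all genes tested). The genes read by a gate, the Dlx genes, Gad1, and Neurod6 against Neurod6+ neurons were described without a test. Each embryo gave a sum to every class, so the library pairs the sums. Deviations from the class means correlated within a library at 0.255 in the Eomes+ comparison and 0.157 in the Neurod6+ comparison, and the library as a block was an alternative. The other alternatives were DESeq2 1.42.0, no TMM scaling, no filter on low counts, a stricter cell filter, thinning to 2000 UMIs, other gates, and leaving out each library.

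Named genes were the members of the lists, the 10 genes highest and the 10 lowest outside them in each comparison (adjusted p under 0.05, the same direction in both libraries, at least 50 CPM in the higher class), the 10 with the largest smaller difference from both classes, and Dot1l and Dnmt1. Gene positions are from RefSeq's GRCm38.p6 annotation. Replicate depth was 74930397 and 68964234 UMIs in the 2 libraries, whose Xist counts (76258 and 10 UMIs) differed by far more than counting error. Percent intervals cover counting error only.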

Additional observations from a re-analysis of the deposited data

Results flagged for a closer look

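Outside the cells analysed, 6 barcodes of WT replicate 1 and 2 of WT replicate 6 held the gene pattern of newborn neurons but failed the filter on mitochondrial RNA or on the highest UMI count. They were noticed because the report's comparisons do not use them, and no control sample exists for them. Below 1500 UMIs, 1 further barcode in WT replicate 1 and 0 in WT replicate 6 met the gene criteria.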

How the results depend on the processing

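The share of newborn neurons, 3.64% of passing cells, was 5.41% with 3000 to 30000 UMIs and under 5% mitochondrial UMIs required, 2.05% with at least 3 Neurod1 UMIs, 4.38% with no Unc5d requirement and 3.35% with at least 2 Unc5d UMIs, and lay between 3.56% and 3.72% when either library was left out. Against Eomes+ cells, 3376 genes passed with edgeR, 1915 with DESeq2, 1519 after thinning to 2000 UMIs and 4336 with the library as a replicate block. Against Neurod6+ neurons, 2477 genes passed with edgeR, 1358 with DESeq2, 1345 after thinning, 3437 with the replicate block and 1377 with any Unc5d count allowed in the comparison class, a setting chosen after seeing the data. The other settings gave 3043 to 4087 and 1913 to 3107 genes. Among the genes named, the direction turned for Sybu against Eomes+ cells with no Unc5d requirement (0.43, from -0.31), and for Mgat4c (0.53, from -0.22) and Adamts2 (-0.022, from 1.68) against Neurod6+ cells of any Unc5d count. The cause was not tested. With the replicate block no call was lost among the 148 and 146 named genes tested against Eomes+ cells and Neurod6+ neurons, and 7 were gained in each comparison, those of Rnd2, Sstr2, Zfhx4, Fezf2, Neurod2 and Bcl11b being given with their results. Leaving out a library leaves no test, and no called difference of a named gene changed sign. After thinning to equal depth, 112 of the 119 called differences of named genes from Eomes+ cells could still be tested, and 6 of these calls were lost. Of the 116 called differences from Neurod6+ neurons 113 could still be tested, and 13 of these calls were lost. The remaining called differences had too few counts for a test at that depth. A level of a few CPM rests on a few UMIs, and a difference not called there was not detectable at this depth.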

Other observations

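Lists of other cell types bear on the purity of the gate. Of the Cajal-Retzius markers, 4 of the 6 tested were lower and 2 did not pass the test (median log2 difference -1.65) against Eomes+ cells. Against Neurod6+ neurons, 2 of the 5 tested were higher, 2 lower and 1 did not pass the test (median log2 difference -0.86). Ebf3, a factor of Cajal-Retzius cells, stood at 2.503 and 0.362 CPM in newborn neurons and 19.7 and 16.9 in Eomes+ cells (-3.50 ± 0.47, adjusted p = 0.0011). Calb2, the calcium buffer calretinin, stood at 29.4 and 23.9 CPM against 9.69 and 5.71 in Neurod6+ neurons (1.76 ± 0.26, adjusted p = 0.0016).

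Against Neurod6+ neurons, 8 microglia and 7 endothelial markers were tested, of which 0 passed with edgeR or DESeq2, and 0 and 1 had an unadjusted p under 0.05. Of the mural and fibroblast markers 3 of 9 were lower than in Neurod6+ neurons with edgeR and 1 with DESeq2. Of the striatal markers 1 of 4 was lower than in Eomes+ cells and 1 of 5 lower than in Neurod6+ neurons. Of the immediate early and stress genes 1 of 8 was higher and 1 lower than in Eomes+ cells, and 1 of 9 higher than in Neurod6+ neurons. Over all genes tested, 14.5% were higher and 13.2% lower than in Eomes+ cells, and 9.43% higher and 10.2% lower than in Neurod6+ neurons. A count of 1 gene in lists this short is near those shares.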
